A study of Mus musculus with 3 samples.

Results

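The inflammatory cytokine genes of macrophages and Il10 were examined in 3 RNAseq libraries from mice bearing Renca renal tumors. The genes were Il1a, Il1b, Il1rn, Tnf, Il6, Il10, Il12a, Il12b, Il23a and Osm, which were chosen by name, and all 10 were found among the 36835 genes of the table. They have 21 annotated transcripts in the mouse annotation, and 36 of the 135070 rows of the table carry their identifiers. The study asked whether Foxp3 mRNA is present in macrophages that infiltrate these tumors. Renca is a kidney carcinoma cell line of BALB/c mice, and it was injected into the kidney. The M1 group, macrophages of type 1, was sorted as F4/80 int and CD11b hi cells and the M2 group, macrophages of type 2, as F4/80 hi and CD11b int cells from 30 tumors of BALB/C mice. The CD4 group was T cells sorted on TCRbeta and CD4 from 4 spleens of tumor-bearing mice, and the animals behind a library cannot be told apart. The sample labels give day 14 after injection in one field and day 16 for the harvest in another, and for the CD4 T cells they name both tumor and spleen. No age of the mice is stated in the sources used here. Each of the 3 groups had 1 library, so no difference below has a replicate check and no p-value is given.

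Levels are in FPKM as the authors deposited them, a number of sequenced fragments scaled to transcript length and to the size of the library, so that levels of different genes in a library can be set side by side. The level of a gene was the sum over its identifiers, each taken from its first row with a value in all 3 columns. The depth was estimated from the lowest levels as about 72300000 fragments for the library labelled CD4, 60800000 for M1 and 58700000 for M2.

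Genes that define the sorted cells go against the labels M2 and CD4. The 8 T cell markers summed to 1282 FPKM in the library labelled M2, 4.88 in M1 and 2.26 in CD4, with Cd3e at 126 FPKM in the library labelled M2 and below 1 FPKM in the others. The 10 macrophage markers summed to 314 FPKM in the library labelled M2, 2279 in M1 and 6046 in CD4. F4/80 itself is encoded by Emr1, with 9.16 FPKM in the library labelled M2, 45.3 in M1 and 215 in CD4. The libraries are therefore called by their labels, and a direction between them is a direction between labelled libraries. In RNA from bulk cells, fewer cells of a type and less RNA per cell cannot be told apart.

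Interleukin-1 alpha and beta, encoded by Il1a and Il1b, and tumor necrosis factor, encoded by Tnf, are early cytokines that macrophages release on sensing microbes or damage. Il1rn encodes the antagonist that occupies the interleukin-1 receptor without signalling. Il6 and Osm encode cytokines that signal through the shared chain gp130. Il12b encodes the p40 subunit, which forms interleukin-12 with p35, the product of Il12a, and interleukin-23 with p19, the product of Il23a. Interleukin-10, encoded by Il10, is made by macrophages and by T cells and restrains the production of inflammatory cytokines.

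Il1b was the most abundant of the cytokine genes in each library, and the library labelled M1 held the most Il1b and Il1rn. Il1b (chromosome 2, 129190306 to 129196875, build NCBIM37) was at 230 FPKM in the library labelled M1, 20.2 in M2 and 92.3 in CD4. It was above 98.9% of the genes with a level over 0 in the library labelled M1. All of this level was in the coding transcript Il1b-001, while the other 2 annotated transcripts were listed at 0 in each library. Il1rn (chromosome 2, 24192373 to 24207014) was at 110 FPKM in the library labelled M1, 6.50 in M2 and 46.2 in CD4. The order of the libraries was the same for the cytokine Il1b and for the antagonist Il1rn. Il1rn was at 0.478 times the level of Il1b in the library labelled M1, at 0.5003 times in CD4 and at 0.322 times in M2.

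Il1a had another order. It lies on chromosome 2 from 129125346 to 129135708, next to Il1b, and was at 3.81 FPKM in the library labelled M1, 2.70 in M2 and 11.8 in CD4. Il1b was therefore at 60.3 times the level of Il1a in the library labelled M1, 7.48 times in M2 and 7.85 times in CD4. Both genes lie on the reverse strand, and each shares exonic bases with 1 gene annotated on the other strand, Gm14023 for Il1a and Gm14047 for Il1b. These were listed at 0 in all 3 libraries.

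**Figure D1:**
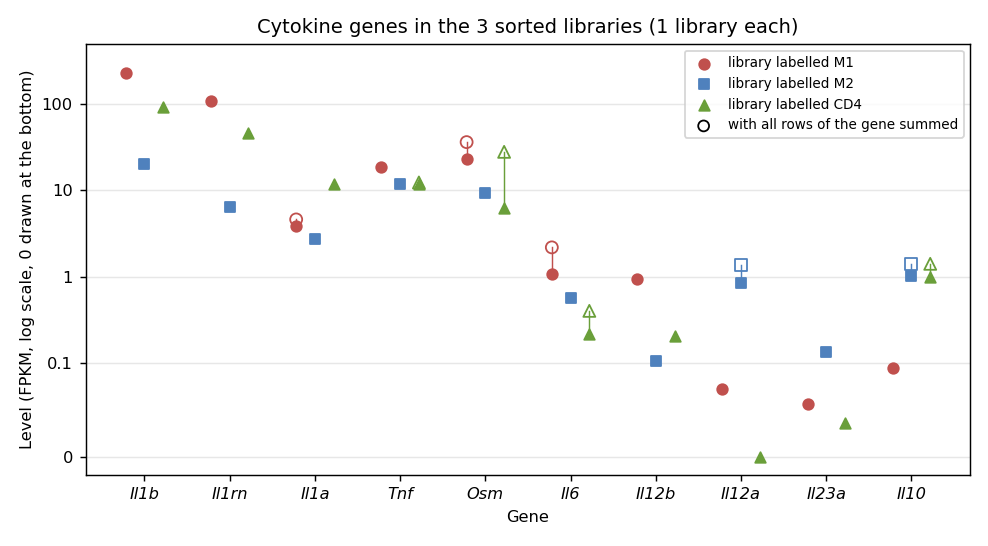
Level of each cytokine gene in FPKM on a log scale, with 1 point for each of the 3 libraries. Open symbols give the level with all rows of the gene summed where this is higher, and Il12a in the library labelled CD4 is listed at 0. Il1b is the highest gene in each library, Il10 is lowest in the library labelled M1, and the largest gap between filled and open symbols is that of Osm in the library labelled CD4.

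The antagonist gene has starts 8457 bases apart, and both had levels above 0 in each library. Il1rn-002 starts at 24200830 and encodes 178 residues, the length of the secreted antagonist. Il1rn-001 starts at 24192373 and encodes 159 residues, the length of an intracellular form that lacks the signal peptide. Their coding sequences share the last 475 bases, so that 62 bases belong to Il1rn-002 and 5 to Il1rn-001 alone. The first 30 coding bases in NCBIM37 are shown because they separate the forms. Those of Il1rn-002 lie at chr2:24200973-24201002 on the forward strand, and those of Il1rn-001 begin at 24192503 and continue in the next exon up to 24201059. The start codon is in capitals.
Il1rn-002: ATGgaaatctgctggggaccctacagtcac
Il1rn-001: ATGgcttcagaggcagcctgccgcccttct

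Il1rn-002 was at 89.4 FPKM in the library labelled M1, 4.34 in M2 and 38.2 in CD4. The levels of Il1rn-001 in these libraries were 20.3, 2.16 and 7.996 FPKM. The form of secreted length thus made up 81.5% of the Il1rn level in the library labelled M1, 82.7% in CD4 and 66.8% in M2. The other 4 annotated transcripts were listed at 0 in each library. Cufflinks shares fragments between overlapping transcripts by a model, so these shares are estimates.

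**Figure D2:**
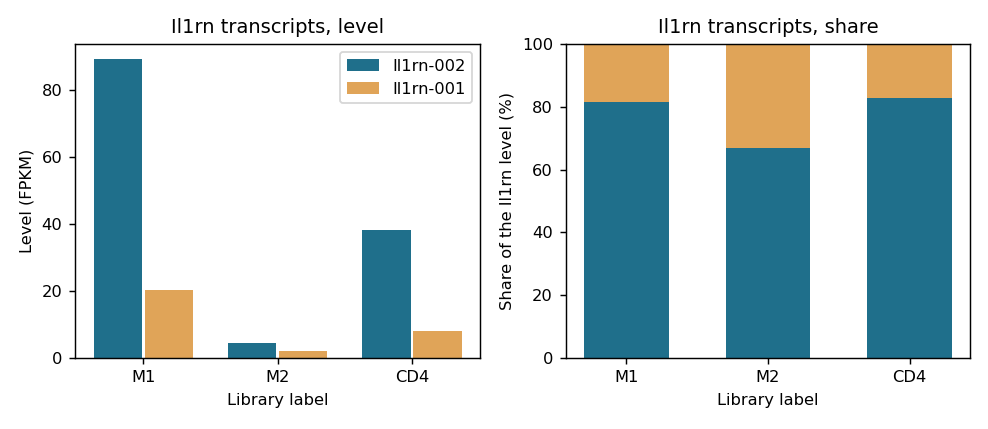
Levels in FPKM (left) and shares in percent (right) of the transcripts Il1rn-002 and Il1rn-001 in the 3 libraries, 1 library for each bar position. Il1rn-002 holds 81.5% of the level in the library labelled M1, 66.8% in M2 and 82.7% in CD4.

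The promoters of the interleukin-1 genes are shown because the order of the libraries for Il1a differed from that for Il1b and Il1rn. Any link of the promoter letters to these orders was not tested. Each window runs from 250 bases before the annotated start to 50 bases from the start on, in NCBIM37. The windows were searched on both strands for the TATA box with the letters TATAAA, the AP-1 motif with TGANTCA, the C/EBP motif with TTGCNNAA, the PU.1 motif with GAGGAA, the STAT motif with TTCNNNGAA and the NF-kappaB motif, and all matches are in capitals. The windows are chr2:129196826-129197125 for Il1b-001 and chr2:129135659-129135958 for Il1a-001 on the reverse strand, and chr2:24200580-24200879 for Il1rn-002 and chr2:24192123-24192422 for Il1rn-001 on the forward strand.
Il1b-001: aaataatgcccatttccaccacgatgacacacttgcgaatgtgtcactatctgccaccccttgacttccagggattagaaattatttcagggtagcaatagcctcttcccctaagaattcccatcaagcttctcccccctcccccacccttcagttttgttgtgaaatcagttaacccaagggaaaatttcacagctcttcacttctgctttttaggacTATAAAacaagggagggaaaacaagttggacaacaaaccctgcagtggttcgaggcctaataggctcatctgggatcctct
Il1a-001: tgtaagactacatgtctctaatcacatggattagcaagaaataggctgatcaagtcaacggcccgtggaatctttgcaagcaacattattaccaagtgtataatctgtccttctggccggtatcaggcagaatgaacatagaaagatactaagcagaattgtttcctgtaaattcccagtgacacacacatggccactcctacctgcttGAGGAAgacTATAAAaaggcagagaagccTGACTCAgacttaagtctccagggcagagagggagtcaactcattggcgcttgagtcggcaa
Il1rn-002: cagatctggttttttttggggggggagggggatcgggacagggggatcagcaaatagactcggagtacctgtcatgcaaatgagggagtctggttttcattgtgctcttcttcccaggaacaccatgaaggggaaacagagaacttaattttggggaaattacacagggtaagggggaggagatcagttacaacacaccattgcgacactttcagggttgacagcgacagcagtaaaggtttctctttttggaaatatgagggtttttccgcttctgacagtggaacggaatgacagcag
Il1rn-001: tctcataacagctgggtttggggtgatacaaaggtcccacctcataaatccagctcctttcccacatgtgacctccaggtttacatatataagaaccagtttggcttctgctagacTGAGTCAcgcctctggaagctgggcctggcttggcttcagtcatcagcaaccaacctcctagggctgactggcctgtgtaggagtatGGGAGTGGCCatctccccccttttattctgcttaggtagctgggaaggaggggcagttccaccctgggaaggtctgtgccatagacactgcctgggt

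Il1b, Il1a and Tnf each held the letters TATAAA, beginning at base -31, -32 and -29 from the start. Of 45982 promoters of protein-coding transcripts in the annotation, 11.4% held TATAAA, against 3 of the 9 cytokine genes whose window was searched. The window was that of the most abundant transcript, except for Il12b. There it was that of Il12b-201, the higher transcript in the library labelled M1 only, which has the same annotated start as Il12b-001. The start of Il1rn-001 held TGAGTCA at -134 and the NF-kappaB match GGGAGTGGCC at -47, and the window of Il1rn-002 held 0 matches to the 6 motifs. The NF-kappaB motif was in 4 of the 9 windows (Tnf, Il6, Il12a and Il23a) and in 22.8% of all promoters. TGANTCA was in 2 (Il1a and Il23a) and in 6.49%, TTGCNNAA in 1 (Il6) and in 9.77%, GAGGAA in 4 (Il1a, Tnf, Il6 and Il12b) and in 27.2%, and TTCNNNGAA in 0 and in 7.58%. These are matches of letters and not measured binding.

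Tnf differed less between the libraries than Il1b. Tnf (chromosome 17, 35336326 to 35338952) was at 18.6 FPKM in the library labelled M1, 12.0 in M2 and 11.9 in CD4. The level lay in Tnf-001, and Tnf-002 was listed at 0. Il1b was at 12.4 times the level of Tnf in the library labelled M1, 7.78 times in CD4 and 1.69 times in M2.

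Osm, which encodes oncostatin M, depended on the rows used. Osm (chromosome 11, 4136423 to 4141029) was at 23.4 FPKM in the library labelled M1, 9.21 in M2 and 6.22 in CD4 in the row with values in all 3 columns. A further 4 rows had a value in the column headed CD4 only, the highest at 12.7 FPKM, and 1 row had 12.9 FPKM in the column headed M1 only. With all rows summed, Osm was at 36.3 FPKM in the library labelled M1, 9.21 in M2 and 28.0 in CD4. The library labelled M1 was highest either way, while the libraries labelled M2 and CD4 changed places.

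Il6 was at the low end in all 3 libraries. Il6 (chromosome 5, 30339701 to 30346508) was at 1.08 FPKM in the library labelled M1, 0.557 in M2 and 0.216 in CD4. At the estimated depths these levels correspond to about 71, 36 and 17 fragments, the last with an exact Poisson 95% interval of 9.90 to 27.2. Such intervals cover counting error only. Summing all rows gave 2.18 FPKM in the library labelled M1, 0.557 in M2 and 0.400 in CD4, which left the order of the libraries as it was.

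**Figure D3:**
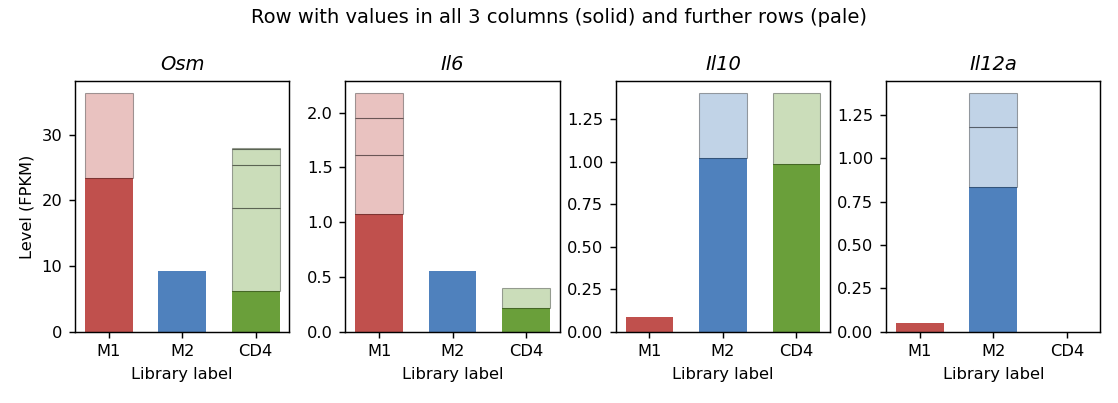
Levels in FPKM of Osm, Il6, Il10 and Il12a, with the rows that have values in all 3 columns as solid bars and each further row stacked in pale color, 1 library for each bar. The further rows take Osm in the library labelled CD4 from 6.22 to 28.0 FPKM, and they leave Il10 lowest in the library labelled M1.

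The subunits of interleukin-12 were highest in different libraries. Il12b (chromosome 11, 44213565 to 44227535) was at 0.940 FPKM in the library labelled M1, 0.104 in M2 and 0.206 in CD4, or about 109, 11 and 28 fragments. Its transcripts Il12b-201 and Il12b-001 have the same coding length of 1008 bases, and Il12b-201 was at 0.595 FPKM in the library labelled M1 and listed at 0 in the others. Il12a (chromosome 3, 68494566 to 68502469) was at 0.0497 FPKM in the library labelled M1, 0.836 in M2 and listed at 0 in CD4. These are about 4 fragments (interval 1.09 to 10.2) and 62 fragments (47.5 to 79.5), and 3 fragments in the library labelled CD4 would give 0.0326 FPKM. The Il12a level was in Il12a-202, which encodes 215 residues, while Il12a-201 with 236 residues had its levels in 2 rows of the column headed M2 only, at 0.347 and 0.194 FPKM. Cufflinks can also list 0 where its estimate failed.

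Il23a was near the limit of detection. Il23a (chromosome 10, 127733196 to 127735140), the subunit specific to interleukin-23, was at 0.0328 FPKM in the library labelled M1, 0.133 in M2 and 0.02004 in CD4. The corresponding numbers of about 3, 11 and 2 fragments had intervals of 0.619 to 8.77, 5.49 to 19.7 and 0.242 to 7.22. At so few fragments no order of the libraries was read from Il23a.

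Il10 was lowest where Il1b was highest. Il10 (chromosome 1, 132916422 to 132921551) was at 0.0870 FPKM in the library labelled M1, 1.02 in M2 and 0.987 in CD4. These are about 7 fragments (interval 2.81 to 14.4), 78 (61.7 to 97.3) and 93 (75.1 to 114). The libraries labelled M2 and CD4 were 11.7 and 11.4 times as high as that labelled M1, and the libraries labelled M2 and CD4 themselves had overlapping intervals. Tnf was at 213 times the level of Il10 in the library labelled M1, 11.7 times in M2 and 12.0 times in CD4. With all rows summed Il10 was at 1.403 FPKM in the library labelled M2, 1.405 in CD4 and again 0.0870 in M1.

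Differences between libraries were counted where the log2 ratio of FPKM + 1 reached 1 or -1. On this scale differences of low genes come out smaller than they are. Between the libraries labelled CD4 and M1, 1 of the 10 genes was higher in CD4 by this measure and 3 were lower. The higher one was Il1a, with a log2 ratio of 1.41, and the lower ones were Osm at -1.76, Il1b at -1.31 and Il1rn at -1.23. Of all genes 2.20% were higher and 2.28% lower, and of the genes reaching 1 FPKM in either library 6.98% and 7.24%. With all rows summed Osm was at -0.36 and no longer past the threshold, while Il10 at 1.15 and Il6 at -1.18 were. The median log2 ratio was -0.64 for the 10 cytokine genes and 0 for all genes, and -1.002 for the 6 cytokine genes reaching 1 FPKM against -0.01 for all such genes.

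Between the libraries labelled M2 and M1, 0 of the 10 genes were higher in M2 and 3 were lower. These were Il1rn at a log2 ratio of -3.88, Il1b at -3.45 and Osm at -1.26. Of all genes 5.73% were higher and 4.90% lower, and 17.0% and 14.5% of those reaching 1 FPKM in either library. Il10 at 0.89 and Il12a at 0.81 were below the threshold on this scale and above it with all rows summed, at 1.14 and 1.18, and Il6 went from -0.42 to -1.03. The median was -0.51 for the 10 cytokine genes and 0 for all genes, and -0.59 for the 7 cytokine genes reaching 1 FPKM against 0.10 for all such genes. The macrophage markers were lower in the library labelled M2 for all 10 genes, at 0.0493 to 0.244 times their level in M1. Il1b at 0.0877 times was within this range and Il1rn at 0.0592 times also, while Osm at 0.394, Tnf at 0.644 and Il1a at 0.707 times were above it. The part of cell makeup in these differences was not tested.

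Between the libraries labelled M2 and CD4, 0 of the 10 genes were higher in M2 and 3 were lower, which were Il1rn at -2.65, Il1b at -2.14 and Il1a at -1.79. Of all genes 5.85% were higher and 5.17% lower, and 17.3% and 15.3% of those reaching 1 FPKM in either library. The median was 0.02 for the 10 cytokine genes and 0 for all genes, and -0.89 for the 6 cytokine genes reaching 1 FPKM against 0.12 for all such genes. With all rows summed Osm went from 0.50 to -1.51, past the threshold as lower. Il12a, listed at 0 in CD4, went from 0.88 to 1.25 and past the threshold as higher. Tnf and Il10 had log2 ratios of 0.01 and 0.02. The 10 macrophage markers were at 0.0295 to 0.179 times their level in CD4. Il1rn at 0.141 times was within this range. Il1b at 0.218, Il1a at 0.229, Tnf at 1.01 and Osm at 1.48 times (0.329 with all rows summed) were above it. The part of cell makeup was not tested here either. The comparisons share libraries and are not independent of each other.

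**Figure D4:**
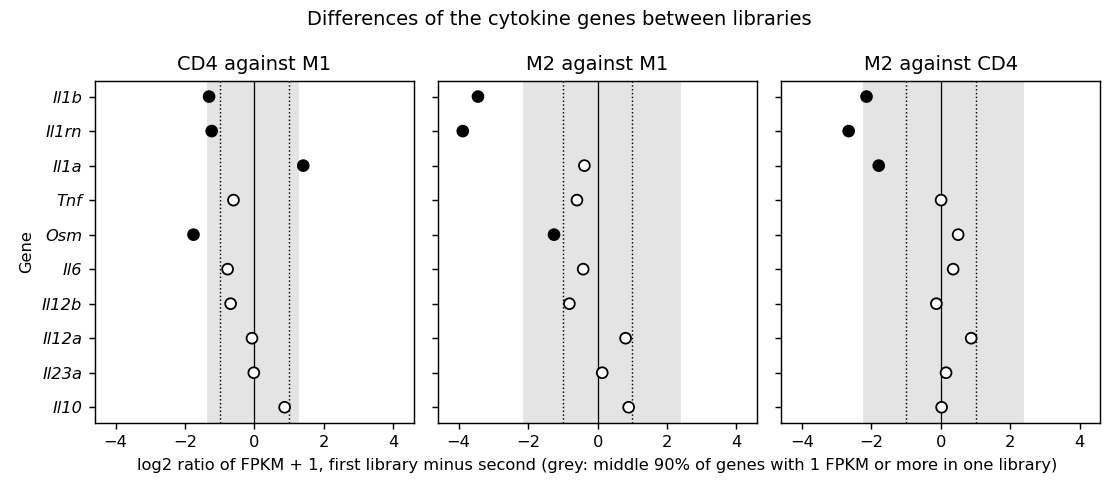
Log2 ratio of FPKM + 1 for each cytokine gene in the 3 pairs of libraries, first library minus second, with filled points at or past 1 in size (dotted lines) and the middle 90% of genes reaching 1 FPKM in either library in grey. Il1b and Il1rn lie to the left of the grey band in the panel of M2 against M1, at -3.45 and -3.88, and Il1a lies on the right in the panel of CD4 against M1 at 1.41.

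Receptor chains of these cytokines were measured for all 13 genes of a list. In CD4 against M1, 0 were higher and 4 lower, beside 2.20% and 2.28% of all genes. In M2 against M1, 1 was higher and 4 lower, beside 5.73% and 4.90%. In M2 against CD4, 5 were higher and 4 lower, beside 5.85% and 5.17%. Of genes reaching 1 FPKM in either library, 6.98% were higher and 7.24% lower in CD4 against M1. These shares were 17.0% and 14.5% in M2 against M1, and 17.3% and 15.3% in M2 against CD4. Il1r2, the decoy receptor of interleukin-1, was at 10.3 FPKM in the library labelled M1, 3.32 in M2 and 0.974 in CD4. Il1r1, the signalling receptor, was at 0.907, 2.04 and 0.493 FPKM in that order, and at 2.33 in CD4 with all rows summed. Both interleukin-1 receptors were thus low beside Il1b. Il10ra, the chain that binds interleukin-10, was at 47.1 FPKM in the library labelled M1, 3.05 in M2 and 56.9 in CD4. Il10ra was therefore as high in the library labelled M1, which held the least Il10, as in that labelled CD4 within a ratio of 1.21. Tnfrsf1a and Tnfrsf1b, the receptors of tumor necrosis factor, were at 70.3 and 65.6 FPKM in the library labelled M1, 23.6 and 24.1 in M2, and 78.6 and 62.4 in CD4. Il12rb1, which interleukin-12 and interleukin-23 share, was the one higher in M2 against M1, at 2.01 and 0.181 FPKM. Il6st, which encodes gp130, was at 12.4 FPKM in the library labelled M1 and 13.4 in M2. It was listed at 0 in CD4 in the rows used here and was at 7.53 there with all rows summed. When all rows were summed, Il1r2 was the only one of the 4 lower receptor genes of CD4 against M1 still past the threshold, since Il1rap came to -0.80, Il12rb2 to -0.82 and Il6st to -0.65, and 3 instead of 5 were higher in M2 against CD4.

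**Figure D5:**
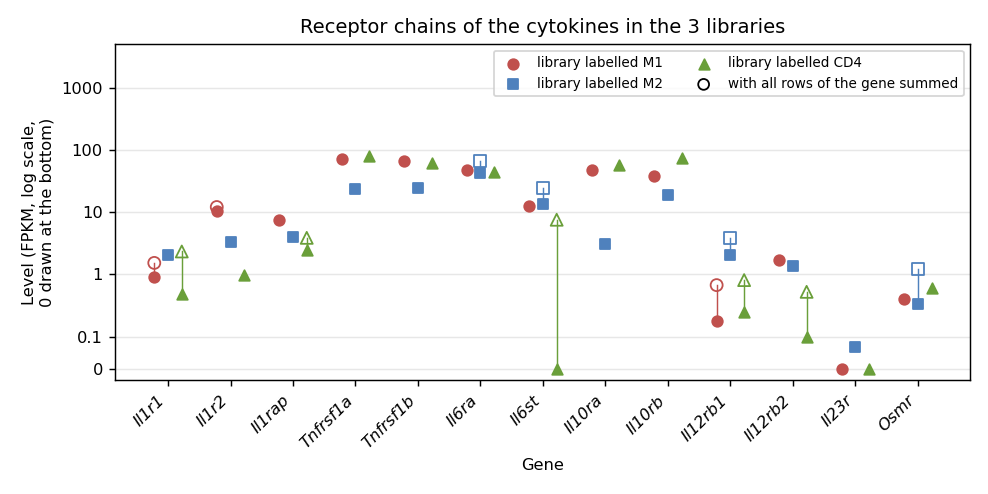
Levels in FPKM on a log scale of 13 receptor chains in the 3 libraries, with open symbols for all rows summed where higher. Il10ra is at 3.05 FPKM in the library labelled M2 and at 47.1 and 56.9 in M1 and CD4, and Il6st in CD4 moves from a listed 0 to 7.53.

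Genes that release active cytokines were lower in M2 against M1 for 3 of 4 genes, beside 4.90% of all genes and 14.5% of those reaching 1 FPKM. In M2 against CD4, 2 of 4 were lower, beside 5.17% of all genes and 15.3% of those reaching 1 FPKM. In CD4 against M1, 0 of 4 were past the threshold, beside 2.20% of all genes higher and 2.28% lower. Casp1, the protease that matures interleukin-1 beta, was at 29.2 FPKM in the library labelled M1, 11.6 in M2 and 21.0 in CD4. Nlrp3, an inflammasome sensor, was at 21.5, 4.56 and 12.6 FPKM in that order, and at 122, 8.53 and 26.4 with all rows summed, which put Nlrp3 past the threshold as lower in CD4 against M1 at -2.17. Adam17, which sheds tumor necrosis factor from the membrane, was at 49.7, 20.9 and 55.7 FPKM, and Pycard, the inflammasome adaptor, at 13.4, 8.85 and 16.6. In the rows used here the order of the libraries was that of Il1b for Casp1 and Nlrp3 and another for Adam17 and Pycard. With all rows summed Pycard was at 32.7, 8.85 and 17.7 FPKM in the libraries labelled M1, M2 and CD4, also the order of Il1b. In M2 against M1 Pycard then came to -1.77 and past the threshold, while Casp1 came to -0.83 and was no longer past it.

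Related cytokines were measured for 11 of 12 genes of a list, and 3 were higher and 2 lower in M2 against M1, beside 5.73% and 4.90% of all genes. The same numbers were found in M2 against CD4, beside 5.85% and 5.17%. In CD4 against M1, 0 were higher and 1 lower, beside 2.20% and 2.28%. Of genes reaching 1 FPKM in either library, 17.0% were higher and 14.5% lower in M2 against M1. These shares were 17.3% and 15.3% in M2 against CD4, and 6.98% and 7.24% in CD4 against M1. Those higher in M2 in both comparisons were Ltb, Lta and Ifng, known products of lymphocytes. Ltb was at 217 FPKM in the library labelled M2, 17.4 in M1 and 2.95 in CD4. Ebi3, a subunit that can bind the products of Il27 or Il12a, was at 9.52 FPKM in the library labelled M1, 2.40 in M2 and 9.44 in CD4, and was thus 10.1 times Il12b in M1 and 45.8 times in CD4. Il17a was listed at 0 in each library, and Il27 also in the rows used here, but at 0.685 FPKM in M1 and 0.535 in CD4 with all rows summed. Tgfb1, a suppressive cytokine made by many cell types, was at 94.9, 35.1 and 82.0 FPKM in the libraries labelled M1, M2 and CD4.

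Regulators were measured for 15 of 16 genes of a list, of which 1 was higher and 3 lower in CD4 against M1, beside 2.20% and 2.28% of all genes. In M2 against M1, 3 were higher and 4 lower, beside 5.73% and 4.90% of all genes. In M2 against CD4, 3 were higher and 5 lower, beside 5.85% and 5.17%. Of genes reaching 1 FPKM in either library, 6.98% were higher and 7.24% lower in CD4 against M1. These shares were 17.0% and 14.5% in M2 against M1, and 17.3% and 15.3% in M2 against CD4. With all rows summed, 2 regulators were higher and 4 lower in M2 against M1, and 4 higher and 4 lower in M2 against CD4. The higher one in CD4 against M1 was Maf, which encodes a transcription factor known to act on Il10, at 132 FPKM in CD4, 12.6 in M1 and 14.2 in M2. Il10 was at about the same level in the libraries labelled CD4 and M2, and Maf was 9.31 times as high in CD4 as in M2. Any action of Maf on Il10 in these cells was not tested. The lower ones were Socs1, Nfil3 and Irf5. Irf5, a transcription factor of inflammatory macrophages, was at 124 FPKM in the library labelled M1, 10.2 in M2 and 54.8 in CD4, in the order of Il1b. Tnfaip3, which restrains NF-kappaB signalling, was at 7.44 FPKM in the library labelled M1, 21.0 in M2 and 4.32 in CD4. Nfkb1 and Rela, subunits of NF-kappaB, were within 36.3 to 42.3 and 27.0 to 33.0 FPKM over the libraries, but Nfkb1 was at 90.6 FPKM in M2 with all rows summed.

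Zfp36, which encodes tristetraprolin, a protein that binds AU-rich elements of cytokine mRNAs and promotes their decay, was at 226 FPKM in the library labelled M1, 128 in M2 and 184 in CD4. The pentamer ATTTA was in the annotated 3′UTR of 9 of the 10 genes, and the exception was Il1rn, with 0 in 1306 bases. Of annotated transcripts with a 3′UTR within 20% of the length of each of these, 40.2% (Il6) to 78.0% (Il1rn) held it, and 30.0% held at least the 3 copies of Il1a. Tnf held 8 in 764 bases, Il6 held 5 in 420 and Il1b 4 in 459. Among 5096 annotated transcripts with a 3′UTR within 20% of the length of that of Tnf, 61.4% held at least 1 and 0.255% at least 8. For Il1b 2.55% of transcripts of like length held at least 4, and for Il6 0.790% held at least 5. The longer motif TTATTTATT was found 5 times in Tnf, once each in Il12a and Il23a, and not in the others, beside 4.14%, 2.62% and 3.79% of transcripts of like length with at least 1. The 30 bases richest in ATTTA are shown for Tnf, Il1b and Il6 because they hold 5, 3 and 2 of the copies counted, with each ATTTA in capitals, from chr17:35336624-35336653 for Tnf, chr2:129190544-129190573 for Il1b (both on the reverse strand) and chr5:30346217-30346246 for Il6 on the forward strand.
Tnf-001: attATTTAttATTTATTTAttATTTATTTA
Il1b-001: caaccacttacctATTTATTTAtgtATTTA
Il6-201: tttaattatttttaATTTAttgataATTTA

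Markers of other cells moved with some of these differences. Ccr2, a chemokine receptor of inflammatory monocytes, was at 526 FPKM in the library labelled M1, 23.1 in M2 and 183 in CD4. Of 5 monocyte markers 4 were lower in CD4 than in M1 and 1 was higher, beside 2.28% and 2.20% of all genes. The higher one was Ly6c1, at 4.95 FPKM in CD4 and listed at 0 in M1. With all rows summed Ly6c1 was at 49.3 FPKM in M1, and 5 of 5 were lower in CD4. In M2 against M1, 2 were higher and 3 lower, beside 5.73% and 4.90% of all genes. In M2 against CD4, 3 were higher and 2 lower, beside 5.85% and 5.17%. The 5 markers summed to 191 FPKM in CD4, 603 in M1 and 284 in M2. Ly6c2 was at 64.5 FPKM in the library labelled M1, 1.97 in CD4 and listed at 0 in M2, where all rows summed to 39.7. The 9 neutrophil markers summed to 69.5 FPKM in the library labelled M1, 216 in M2 and 36.2 in CD4, with S100a8 at 19.0, 84.5 and 4.17 and S100a9 at 28.1, 110 and 6.08. The list was not uniform, since Csf3r was at 19.7, 8.40 and 25.3 FPKM and Ly6g, a defining marker, was listed at 0 in M2 and below 0.1 in the others. The level of Ly6g in M2 was 1.26 FPKM when all rows were summed. Elane, another of these markers, was below 1 FPKM in each library in the rows used here. With all rows summed Elane was at 366 FPKM in M1, 723 in M2 and 336 in CD4. Each of these values is above the sum of the 9 markers given here for that library. The 6 mast cell and basophil markers summed to at most 1.99 FPKM in any library, and Mcpt8 was listed at 0 in M1 and CD4. The B cell markers summed to 47.0 FPKM in the library labelled M2 and below 1 FPKM in the others, the 5 markers of NK and CD8 cells to 3.43 in M1, 12.7 in M2 and 0.306 in CD4, and the 5 dendritic cell markers to 13.2, 17.0 and 6.36. The 7 kidney epithelial markers summed to 69.3 FPKM in the library labelled M1, 185 in M2 and 89.2 in CD4. Early response genes that tissue dissociation is known to induce were measured for 10 genes. They summed to 718 FPKM in the library labelled M1, 428 in M2 and 673 in CD4. Of these genes, 0 were higher and 1 lower in CD4 than in M1, beside 2.20% and 2.28% of all genes. The lower one was Fosb, listed at 0 in CD4 in the rows used here and at 15.2 FPKM there with all rows summed, against 8.996 in M1. Atf3 was then the lower one, at 25.6 in CD4 and 65.004 in M1. The part of these cells and of dissociation in the cytokine levels was not tested.

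The genes nearest to Il1b in level over the 3 libraries, by Euclidean distance on the log2(FPKM + 1) scale among 22143 protein-coding genes, were Bcl2a1b at a distance of 0.221, Gm2a at 0.681 and Bcl2a1d at 0.780. Bcl2a1b was at 201 FPKM in the library labelled M1, 21.4 in M2 and 88.8 in CD4. Bcl2a1b and Bcl2a1d are near-identical copies, so that their separate levels are uncertain. The genes nearest to Il10 were Des at 0.195, H60c at 0.198 and Pemt at 0.205. With 3 libraries such likeness is a description of 3 values.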

How the data were processed

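RNA of sorted M1, M2 and CD4 T cells was sequenced in 3 libraries, 1 for each group. Per the study's methods, paired reads of 51 bases were aligned to MM9 with Bowtie and TopHat, and Cufflinks, guided by Ensembl release 67, estimated transcript levels. The sample labels also name Cuffdiff. The values the authors deposited are FPKM, and a dash stands where a row has no value in a column. How rows of the 3 libraries were joined is not given in the sources used here.

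Identifiers were matched to the GENCODE annotation of NCBIM37, the build also called MM9 (Ensembl 65), for 90316 of 92520 identifiers. The first row of each identifier with values in all 3 columns was kept and summed per gene, giving 36835 genes. For each library the depth came from the commonest low product of FPKM and length in kilobases (log2 below -4.8) among single-transcript coding genes 2500 to 8000 bases long, so that fragment numbers are approximate. A pseudocount of 1 FPKM and a ratio of 2 were used, with no filter on low values in the counts over all genes. The genes named are the 10 cytokine genes, members of the lists and, for Il1b and Il10, the 3 genes of nearest level. The cytokine genes and lists were chosen with earlier results of these data known. Calculations were tested on simulated data. Alternatives were a pseudocount of 0.1 FPKM, a minimum of 1 FPKM, scaling by the median ratio, all rows summed, the highest transcript, protein-coding transcripts and a ratio of 4. Tools were Python 3.11.15 with pandas 2.3.3, scipy 1.17.1, numpy 2.4.6 and, for plots, matplotlib 3.10.9. Summing all rows for the lists was added after seeing the data. The other assays of the study were not analysed here, and the promoter window of 1 cytokine gene is not reported here.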

Additional observations from a re-analysis of the deposited data

How the results depend on the processing

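No paired analysis was possible because each group had 1 library. With a pseudocount of 0.1 FPKM, the cytokine genes past 2-fold were 2 higher and 5 lower in the library labelled CD4 against M1 (1 and 3 with a pseudocount of 1), 2 higher in M2 against M1 (0) and 2 higher in M2 against CD4 (0). Of all genes 4.47% were then higher and 4.17% lower in CD4 against M1, and 10.3% were higher in M2 against M1 and 10.2% in M2 against CD4. With all rows summed, 2 cytokine genes were higher in CD4 against M1, 2 in M2 against M1 and 1 in M2 against CD4. The shares of all genes were 2.35%, 7.6% and 7.72%. At a ratio of 4, 0 cytokine genes were higher and 0 lower in CD4 against M1, beside 259 and 270 of all 36835 genes. The log2 ratio of Osm in M2 against CD4 was 0.50 and reversed to -1.51 with all rows summed, by the further rows of the column headed CD4. Of 42 recomputed counts of cytokine genes 33 stayed within 1.5 times, and of 150 recomputed log2 ratios 133 moved by less than 0.5. Some of these could not move. A gene past the threshold at a pseudocount of 1 always reaches 1 FPKM, so that minimum left the counts as they were. The noncoding transcripts of the cytokine genes were listed at 0, so using protein-coding transcripts changed nothing. The highest transcript alone could change only Il1rn and Il12b, which had 2 transcripts above 0. Il12b in M2 against M1 went from -0.81 to -2.35 with the pseudocount of 0.1 FPKM and to -0.29 with the highest transcript only.

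Over all genes, 809 were higher and 839 lower in CD4 against M1, and with a pseudocount of 0.1 FPKM 1647 and 1537. The numbers were 2110 and 1806 against 3798 and 2728 in M2 against M1, and 2156 and 1903 against 3740 and 2841 in M2 against CD4. At a ratio of 4 they were 259 and 270, 799 and 688, and 815 and 721. Depth limits Il23a, Il12a in the libraries labelled M1 and CD4, Il10 in that labelled M1 and Il12b in that labelled M2, at about 11 fragments or fewer each.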
